A study of Homo sapiens with 4 samples.

Results

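The genes described here are 18 of the cytosolic aminoacyl-tRNA synthetases and 23 further genes of serine synthesis, one-carbon metabolism and the response to the transcription factor ATF4. They are 41 of the 58825 genes counted. They were taken by symbol, and the list was drawn up with the difference between the same libraries already known. Their differences between the groups are therefore given as a description, without p-values. The study compared LoVo cells, a human colon adenocarcinoma line with an uncleaved and constitutively phosphorylated MET receptor, with their derivative in which MET, the receptor tyrosine kinase for hepatocyte growth factor, was knocked out with CRISPR/Cas9. MET+ cells (genotype WT, described as a GFP control) and MET-KO cells (genotype MET knock out) gave 2 biological replicates each. Both groups were kept in DMEM with fetal bovine serum, and their RNA was counted from the 3′ ends of transcripts. After transfection and puromycin selection, single clones were grown and those without MET protein were kept. The sources used here do not say whether the MET-KO replicates came from 1 clone, and a trait of the clone and an effect of MET loss cannot be told apart.

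Aminoacyl-tRNA synthetases attach each amino acid to its tRNA and so supply every round of protein synthesis. ATF4 is made when phosphorylated eIF2 slows general translation, or when mTORC1 is active, and binds DNA together with C/EBP proteins at a composite element first studied in the promoters of amino acid response genes. Its targets include many cytosolic synthetases, enzymes that make serine, asparagine and cysteine, and regulators that feed back on the response, such as TRIB3 and PPP1R15A.

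The libraries held between 8429142 and 10286552 counts, and 13801 genes had enough counts for a test. Levels are given in CPM, counts scaled so that libraries of different depth can be compared, and differences as log2 fold changes of MET-KO over MET+ cells, with the standard error (SE) of the fit. A gene was called lower or higher at an adjusted p under 0.05. Positions are on GRCh38. MET, the targeted gene (ENSG00000105976, chromosome 7, 116672390 to 116798386), had 338 and 336 CPM in MET+ and 84.4 and 88.9 CPM in MET-KO cells, a log2 fold change of -1.96 ± 0.09 (SE) with a Benjamini-Hochberg adjusted p of 1.49e-18 by the quasi-likelihood test of edgeR. Its RNA was thus present in the MET-KO libraries at 25.7% of the MET+ level, and only RNA was measured. Of 11 markers of colorectal epithelium, 7 had counts in every library, including EPCAM, CDH1 and the keratins KRT8, KRT18 and KRT19. CDX1 had 0 counts throughout, KRT20 had none in MET+, and GPA33 and CEACAM5 had none in MET-KO cells. The summed level of these 11 markers was 9694 and 9731 CPM in MET+ and 8321 and 7337 CPM in MET-KO cells. KRT18 made up most of this sum, and single markers differed more. EPCAM had 440 and 436 CPM in MET+ and 195 and 211 CPM in MET-KO cells. CDH1 went from 144 and 140 to 79.1 and 75.7 CPM, and VIL1 from 5.20 and 5.95 to 0.294 and 0.276 CPM. CDX2 was higher in MET-KO cells, with 145 and 123 CPM against 63.4 and 66.5 CPM. The 5 markers of fibroblasts, leukocytes and endothelium held at most 19 counts each in a library. Across the genome, 54.1% of the tested genes were called different, 26.9% lower and 27.2% higher in MET-KO cells. On 6 of 23 chromosomes the median log2 fold change of all other tested genes was more than 0.25 away from 0, with -0.42 on chromosome 5, 0.51 on 7, -0.31 on 12, -0.51 on 14, -0.43 on 15 and 0.30 on 21. These medians differed between chromosomes, and 14 of the 39 tested genes of the list lie on these 6. Their neighbours' change is given beside them, and its part in each difference was not tested.

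The genes of the response were mostly lower in MET-KO cells. Of the 41 genes, 39 had enough counts for the test, 31 were called lower, 2 were called higher, and 6 were not called. The same call was made for 26.9% (lower) and 27.2% (higher) of all tested genes, but the list was chosen on this contrast, so the counts are a description. Both MET-KO libraries lay below both MET+ libraries in 33 of the 39 genes (37.1% of all tested genes) and above them in 2 (38.5%). The median log2 fold change was -0.94, beside 0.01 over all tested genes. A difference of at least 1 on the log2 scale toward lower levels was found in 19 genes, and in 9.81% of all tested genes. In bulk RNA, a lower level per cell and fewer cells with a high level cannot be told apart. Summed over the 41 genes, the level was 8203 and 7979 CPM in MET+ and 4203 and 4099 CPM in MET-KO cells. The levels of each gene in the 4 libraries, in order of the change, are drawn on a log axis.

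**Figure D1:**
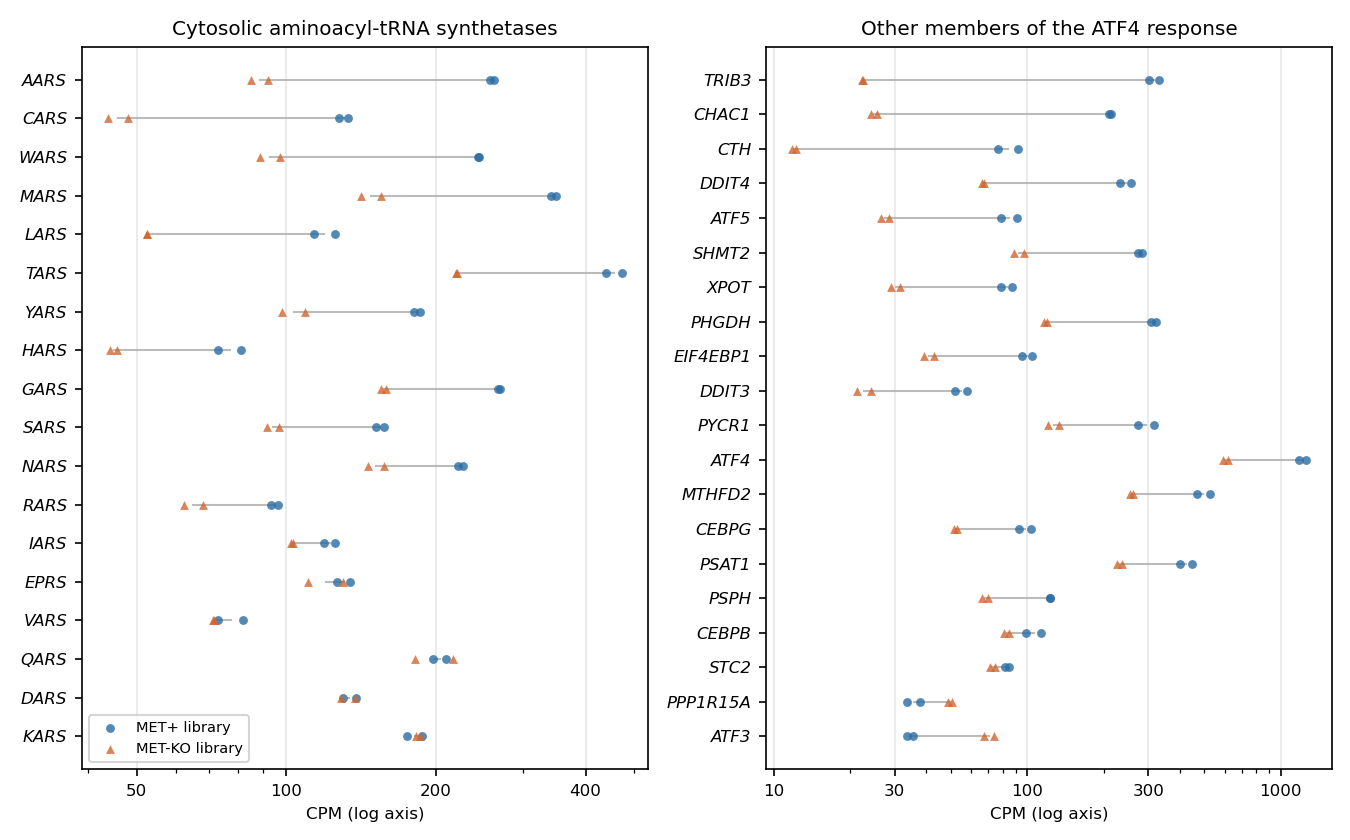
Each row is 1 gene and each point 1 library (circles MET+, triangles MET-KO, 2 libraries a group), with the level in CPM on a log axis and a line between the group means. TRIB3, CHAC1 and CTH had the widest gaps among the genes drawn, while MET-KO points of ATF3 and PPP1R15A lay to the right of the MET+ points. ASNS, CBS and VLDLR, with at most 14 counts in a library, are not drawn.

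The promoters of several of these genes carry the letters of the element that ATF4 and C/EBP proteins bind. Sequences of 300 bases around the start of transcription, from 250 before to 50 after, were taken from RefSeq (GRCh38.p14) and were found for 33 of the 41 genes. They were searched on both strands for TGATGNAA, which reads TTNCATCA on the other strand. These letters occurred in 11 of the 33 promoters (33.3%), in 7 of 14 synthetase promoters (50%), counting a gene once if any of its windows matched. Counted in the same way, they occurred in 4.46% of all 27305 genes with a window and in 2.70% of the tested genes with a window. By single windows the share was 3.62% of 35116. They were present in 10 of the 25 promoters of genes called lower (40%) and in 0 of the 4 of tested genes not called. With 4 promoters, these 2 shares cannot be compared. The list was drawn up from genes of the ATF4 response and with the contrast known, so all these shares are a description. The promoters of LARS, VARS, YARS, DARS, EIF4EBP1, PSPH, SHMT2 and PYCR1 were not analysed here. A match of letters is a description and was not tested as a binding site. Genes called lower without a match included TRIB3 (log2 fold change -3.81), CTH (-2.81), DDIT4 (-1.88), ATF5 (-1.63) and XPOT (-1.45). PHGDH (-1.41), WARS (-1.39) and DDIT3 (-1.26) had none either. Here 9 of the 11 matches are shown in their surroundings, 5′ to 3′ on the strand of the gene, with the matched letters in capitals, to compare genes that were much lower (CHAC1, AARS, CARS), slightly lower (IARS) and higher (ATF3) in MET-KO cells.
AARS: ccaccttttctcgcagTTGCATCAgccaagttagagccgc
CARS: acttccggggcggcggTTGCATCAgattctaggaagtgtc
MARS: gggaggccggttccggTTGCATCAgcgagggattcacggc
TARS: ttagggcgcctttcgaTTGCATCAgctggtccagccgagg
IARS: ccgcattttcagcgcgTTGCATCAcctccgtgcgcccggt
CEBPG: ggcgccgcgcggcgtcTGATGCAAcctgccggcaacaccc
CHAC1: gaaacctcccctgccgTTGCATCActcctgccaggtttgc
ASNS: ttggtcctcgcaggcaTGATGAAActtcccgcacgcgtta
ATF3: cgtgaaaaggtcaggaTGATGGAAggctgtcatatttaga
The stretch of AARS is chr16:70289670-70289709 on the minus strand, that of CARS chr11:3057402-3057441 (minus), and that of MARS chr12:57488048-57488087 (plus). Those of TARS, IARS and CEBPG are chr5:33440951-33440990 (plus), chr9:92293687-92293726 (minus) and chr19:33374055-33374094 (plus). CHAC1, ASNS and ATF3 are represented by chr15:40953246-40953285 (plus), chr7:97872453-97872492 (minus) and chr1:212565200-212565239 (plus). The same 8 letters, TTGCATCA, stood in the promoters of AARS, CARS, MARS, TARS, IARS and CHAC1, whose log2 fold changes ran from -0.25 in IARS to -3.09 in CHAC1. The match began 2 bases before the annotated start in CARS, 4 in MARS and 13 in IARS, 187 in AARS and 209 in CHAC1, and on base 3 after it in TARS. ATF3, with TGATGGAA beginning 191 bases before the start, was the 1 gene with a match that was higher in MET-KO cells. In CEBPG the letters were TGATGCAA from 42 bases before the start, and in ASNS TGATGAAA from 68 bases before it. The other matches were those of GARS, TTTCATCA beginning 33 bases before the start, and NARS, TGATGCAA beginning on base 15 after it.

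Of the 18 synthetases, 13 were called lower in MET-KO cells and none higher, with a median log2 fold change of -0.74 and a range from -1.55 to 0.02. Over all tested genes 26.9% were called lower and 27.2% higher. IARS, 1 of the 13, kept its call in only 2 of 10 alternative fits. Among the 11 synthetases on chromosomes with a median within 0.25 of 0, 6 were called lower and the median was -0.25. No synthetase was higher at an unadjusted p under 0.05 in edgeR, or at an adjusted p under 0.05 in DESeq2's Wald test (0 of 18 each). Their summed level was 3421 and 3389 CPM in MET+ and 2088 and 2063 CPM in MET-KO cells. AARS (ENSG00000090861, chromosome 16, 70252295 to 70289543), which charges tRNA with alanine, had 257 and 261 CPM in MET+ and 92.1 and 85.1 CPM in MET-KO cells. CARS (ENSG00000110619, chromosome 11, 3000922 to 3057613), the cysteine enzyme, had 133 and 128 CPM in MET+ and 43.7 and 48.0 CPM in MET-KO cells. WARS (ENSG00000140105, chromosome 14, 100333788 to 100376805), the tryptophan enzyme, which interferon also induces in many cells, had 244 and 243 CPM in MET+ and 97.4 and 88.6 CPM in MET-KO cells. All 3 were high in both MET+ libraries and low in both MET-KO libraries without overlap, by -1.55 ± 0.09, -1.51 ± 0.10 and -1.39 ± 0.09 (log2 fold change ± SE, n = 2 libraries a group). WARS lies on chromosome 14, where the tested genes within 5 Mb on each side had a median of -0.76, against 0.09 around AARS and 0.13 around CARS. MARS (ENSG00000166986, chromosome 12, 57475445 to 57517569), the methionine enzyme, which also charges the initiator tRNA, had 340.2 and 349 CPM in MET+ and 155 and 141 CPM in MET-KO cells. LARS (ENSG00000133706, chromosome 5, 146113038 to 146182660), the leucine enzyme and a leucine sensor for mTORC1, had 114 and 125 CPM in MET+ and 52.5 and 52.5 CPM in MET-KO cells. TARS (ENSG00000113407, chromosome 5, 33440696 to 33469539), the threonine enzyme, had 474 and 439.8 CPM in MET+ and 219.9 and 220.2 CPM in MET-KO cells. These groups did not overlap either, with log2 fold changes of -1.22 ± 0.09, -1.19 ± 0.10 and -1.05 ± 0.09, and neighbour medians of -0.51, -0.36 and -0.24. Relative to the medians of their whole chromosomes, WARS had -0.87, LARS -0.76 and TARS -0.63.

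A second set of synthetases had smaller differences. YARS (ENSG00000134684, chromosome 1, 32775237 to 32818153), the tyrosine enzyme, had 186 and 181 CPM in MET+ and 109 and 98.3 CPM in MET-KO cells. HARS (ENSG00000170445, chromosome 5, 140673904 to 140691862), the histidine enzyme, had 73.0 and 81.2 CPM in MET+ and 45.7 and 44.3 CPM in MET-KO cells. GARS (ENSG00000106105, chromosome 7, 30594681 to 30634033), the glycine enzyme, whose transcripts encode a cytosolic and a mitochondrial form, had 269 and 267 CPM in MET+ and 155 and 159 CPM in MET-KO cells. The MET-KO libraries were the low ones in each, and the log2 fold changes were -0.82 ± 0.10, -0.78 ± 0.11 and -0.77 ± 0.09. The genes around GARS on chromosome 7 went the other way, with a median of 0.59, whereas those around HARS on chromosome 5 had -0.44 and those around YARS -0.02. In some annotated transcripts of HARS, up to 44.2% of the last 500 bases lie opposite exons of WDR55. SARS (ENSG00000031698, chromosome 1, 109213918 to 109238169), which charges tRNA with serine and also the selenocysteine tRNA, had 152 and 157 CPM in MET+ and 96.8 and 91.6 CPM in MET-KO cells. NARS (ENSG00000134440, chromosome 18, 57600656 to 57622213), the asparagine enzyme, had 222 and 227 CPM in MET+ and 146 and 158 CPM in MET-KO cells. RARS (ENSG00000113643, chromosome 5, 168486445 to 168519299), the arginine enzyme, had 93.4 and 96.5 CPM in MET+ and 62.3 and 67.9 CPM in MET-KO cells. Their groups were also separate, with log2 fold changes of -0.72 ± 0.10, -0.56 ± 0.09 and -0.55 ± 0.10 and neighbour medians of 0.14, 0.31 and -0.14. Relative to the medians of their whole chromosomes, GARS had -1.28, HARS -0.35 and RARS -0.12.

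The other synthetases differed little. IARS, the isoleucine enzyme, was called lower with a log2 fold change of -0.25 ± 0.10, but it kept this call in only 2 of 10 alternative fits. The 5 synthetases that were not called, EPRS for glutamate and proline, VARS for valine, QARS for glutamine, DARS for aspartate and KARS for lysine, had log2 fold changes between -0.12 and 0.02. KARS, for example, had 188 and 175 CPM in MET+ and 182 and 186 CPM in MET-KO cells. The groups overlapped in EPRS, QARS, DARS and KARS, and VARS had 81.7 and 72.9 CPM in MET+ and 71.6 and 71.4 CPM in MET-KO cells. At this depth their standard errors were between 0.09 and 0.10 on the log2 scale, and differences larger than 1 standard error could also go uncalled. STC2, for example, was not called at -0.19 ± 0.10.

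EPRS, QARS, DARS, KARS, IARS, LARS, MARS and RARS are subunits of the multi-synthetase complex, a cytosolic assembly held together by the scaffold proteins AIMP1, AIMP2 and EEF1E1. This grouping was made after the values were seen. Of these 8 subunits 4 were called lower, with a median of -0.19. Of the 10 synthetases outside the complex 9 were called lower, with a median of -0.80. The same call was made for 26.9% of all tested genes. Of the 4 subunits called lower, IARS kept its call in only 2 of 10 alternative fits. LARS and RARS lie on chromosome 5 and MARS on chromosome 12, whose medians were -0.42 and -0.31. Relative to the neighbours within 5 Mb, the medians inside and outside the complex were -0.37 and -0.83. The summed level of the 8 went from 1330.3 and 1331 CPM to 1011 and 999 CPM, and that of the 10 from 2091 and 2058 CPM to 1078 and 1064 CPM. Within the complex the range was wide, since LARS and MARS were lower by more than 1 on the log2 scale and KARS had 0.02. By catalytic fold, 7 of 9 class I enzymes and 6 of 8 class II enzymes were called lower, beside 26.9% of all tested genes. Their medians were -0.82 and -0.74. EPRS, which holds an enzyme of each class, was counted in neither.

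A comparison from the same libraries was given by genes that encode mitochondrial synthetases alone. GARS and KARS, which encode the enzyme of both compartments, are not among them. Of these 17 genes, 2 were called lower and 0 higher, beside 26.9% and 27.2% of all tested genes. Their median log2 fold change was -0.03, with summed levels of 442 and 452 CPM in MET+ and 453 and 422 CPM in MET-KO cells. By an unadjusted p under 0.05 in edgeR, 0 were higher and 2 lower, and DESeq2's Wald test called 0 in either direction. The 2 were SARS2, with a log2 fold change of -0.60 ± 0.20 (adjusted p = 0.0109, edgeR), and HARS2, with -0.43 ± 0.15 (adjusted p = 0.0144, edgeR). SARS2 shares 72.4% to 100% of its last 500 bases with exons of another gene on its strand, so its count is uncertain. HARS2 shares up to 30.4% with exons of ZMAT2 on its strand, and relative to the median of chromosome 5 its change was -0.0017. The mitochondrial genes had a lower summed level than the 18 cytosolic ones (3421 and 3389 CPM in MET+ cells). Their standard errors reached 0.24 (WARS2), against at most 0.11 in the cytosolic set (HARS). FARS2, at -0.37 ± 0.18, was not called, so the counts of calls in the 2 sets cannot be compared directly. Of the phenylalanine enzyme and the complex scaffolds, FARSA was called lower (-0.40, adjusted p = 0.00197, edgeR) and FARSB was not (-0.24, adjusted p = 0.0588, edgeR). AIMP2 on chromosome 7 was called higher (0.31, adjusted p = 0.0141, edgeR). Relative to the median of chromosome 7 its change was -0.20.

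XPOT (ENSG00000184575, chromosome 12, 64404350 to 64451127), the exportin that carries tRNA out of the nucleus, had 87.4 and 78.7 CPM in MET+ and 29.02 and 31.6 CPM in MET-KO cells. Both MET-KO libraries were low, and the log2 fold change was -1.45 ± 0.11, on chromosome 12 with a neighbour median of -0.43. Over all 39 tested genes of the list, 35 were below the median of their neighbours within 5 Mb, and the median difference from the neighbours was -0.88. The list was chosen on this contrast and the same share over all tested genes was not computed, so the count is a description. Among the synthetases 17 of 18 were below their neighbours. The exception was DARS, with -0.01 against -0.17. Of the other genes, STC2 was above its neighbours as well as ATF3 and PPP1R15A.

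**Figure D2:**
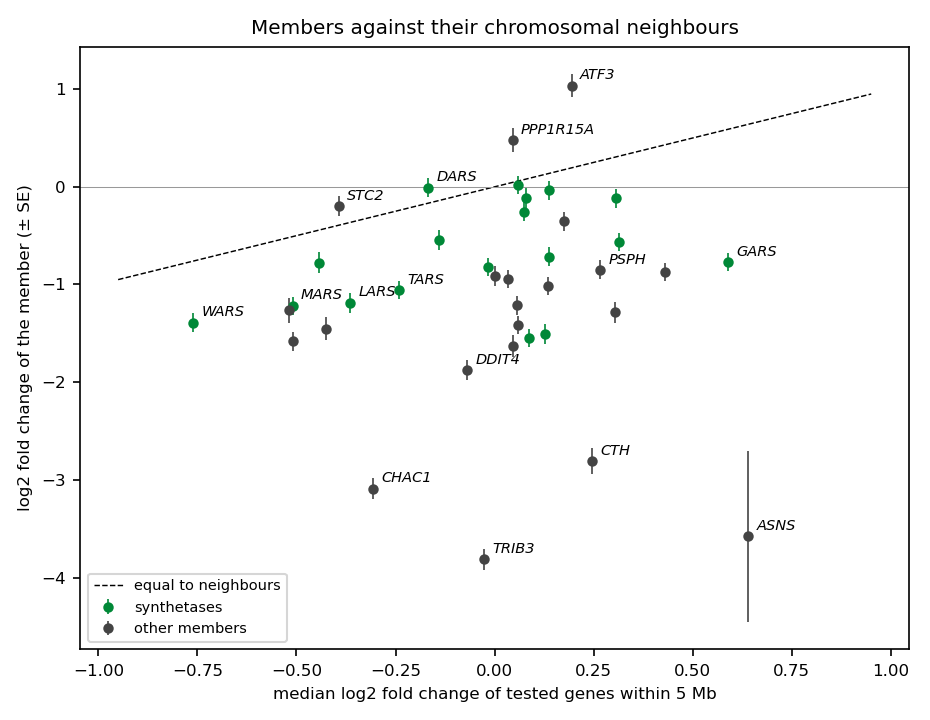
Each point is 1 of the 39 tested genes, with the median log2 fold change of the other tested genes within 5 Mb on the x axis and its own log2 fold change (± SE) on the y axis. Points under the dashed line (35 of 39) were lower in MET-KO cells than their neighbours were, and GARS, PSPH and ASNS were lower in regions of chromosome 7 whose median was above 0.

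The transcription factors of the response were lower with 1 exception. ATF4 (ENSG00000128272, chromosome 22, 39519695 to 39522685), the factor the response is named for, had 1259.8 and 1176 CPM in MET+ and 617 and 589 CPM in MET-KO cells. ATF5 (ENSG00000169136, chromosome 19, 49928702 to 49933935), a related factor that is translated under the same control, had 78.7 and 91.5 CPM in MET+ and 28.6 and 26.4 CPM in MET-KO cells. DDIT3 (ENSG00000175197, chromosome 12, 57516588 to 57521737), which encodes CHOP, a stress-induced C/EBP protein, had 57.9 and 51.9 CPM in MET+ and 21.4 and 24.2 CPM in MET-KO cells. In all 3 the MET-KO libraries were the low ones, without overlap, and the log2 fold changes were -1.01 ± 0.09, -1.63 ± 0.12 and -1.26 ± 0.13. ATF4 RNA thus stood at 49.6% of its MET+ level, and ATF4 is set largely by translation, which was not measured. DDIT3 and MARS end tail to tail on chromosome 12 and overlap there on opposite strands, over 12.6% to 22.8% of the last 500 bases of DDIT3, and the neighbour median of DDIT3 was -0.52. The strand setting of the counting is not given in the sources used here, so reads in the overlap may belong to either gene. CEBPG (ENSG00000153879, chromosome 19, 33373330 to 33382686), a dimer partner of ATF4, had 104 and 92.6 CPM in MET+ and 53.0 and 51.3 CPM in MET-KO cells, a log2 fold change of -0.91 ± 0.11. CEBPB, a partner with wider roles, was called lower by a smaller margin, with 113 and 98.8 CPM in MET+ and 84.8 and 80.9 CPM in MET-KO cells and a log2 fold change of -0.35 ± 0.10. It was not called without MET+ replicate 1. ATF3 (ENSG00000162772, chromosome 1, 212565334 to 212620777), an early stress factor that other pathways also induce, had 33.5 and 35.3 CPM in MET+ and 73.7 and 67.6 CPM in MET-KO cells. ATF3 was high in both MET-KO libraries and low in both MET+ libraries, with a log2 fold change of 1.04 ± 0.11, opposite to the other 5 factors.

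The regulators that feed back on the response or brake growth included TRIB3, with the largest log2 fold change of the list. CHAC1 followed after ASNS (-3.58), whose counts were few. TRIB3 (ENSG00000101255, chromosome 20, 362835 to 397559), a pseudokinase that binds and restrains ATF4 and CHOP, had 329 and 303 CPM in MET+ and 22.6 and 22.4 CPM in MET-KO cells. CHAC1 (ENSG00000128965, chromosome 15, 40952962 to 40956519), which degrades glutathione, had 213 and 211 CPM in MET+ and 25.6 and 24.2 CPM in MET-KO cells. DDIT4 (ENSG00000168209, chromosome 10, 72273920 to 72276036), an inhibitor of mTORC1 also known as REDD1, had 232 and 257 CPM in MET+ and 67.3 and 66.1 CPM in MET-KO cells. The groups were far apart, with log2 fold changes of -3.81 ± 0.11, -3.09 ± 0.11 and -1.88 ± 0.10. TRIB3 and CHAC1 in MET-KO cells stood at 7.11% and 11.7% of their MET+ levels. The neighbours of TRIB3 had a median of -0.03 and those of CHAC1, on chromosome 15, -0.31. Of the last 500 bases of DDIT4, 56.2% lie opposite an antisense gene that had 0 counts in every library. EIF4EBP1 (ENSG00000187840), the 4E-BP1 repressor of cap-dependent translation, had 95.7 and 105 CPM in MET+ and 39.3 and 42.9 CPM in MET-KO cells, a log2 fold change of -1.28 ± 0.11 with separate groups. PPP1R15A, which encodes GADD34, the subunit that directs a phosphatase to eIF2, was higher in MET-KO cells. It had 37.7 and 33.6 CPM in MET+ and 50.3 and 48.9 CPM in MET-KO cells, and the MET-KO libraries were above the MET+ libraries, with a log2 fold change of 0.48 ± 0.12.

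The 5 enzymes of serine synthesis and mitochondrial one-carbon metabolism were all called lower, a call made for 26.9% of all tested genes. PHGDH (ENSG00000092621, chromosome 1, 119648411 to 119744226), the first enzyme of serine synthesis, had 323 and 308 CPM in MET+ and 120.2 and 117 CPM in MET-KO cells. PSAT1 (ENSG00000135069, chromosome 9, 78297143 to 78330093), the aminotransferase of the next step, had 445 and 401 CPM in MET+ and 236 and 226 CPM in MET-KO cells. PSPH (ENSG00000146733, chromosome 7, 56011051 to 56051604), the phosphatase that releases serine, had 123 and 123 CPM in MET+ and 66.5 and 70.1 CPM in MET-KO cells. Each enzyme of the pathway was lower in both MET-KO libraries, by -1.41 ± 0.09, -0.87 ± 0.09 and -0.85 ± 0.10 on the log2 scale. PSPH lies on chromosome 7, where its neighbours had a median of 0.27, and its change relative to the chromosome's median was -1.36. SHMT2 (ENSG00000182199, chromosome 12, 57229327 to 57234935), which turns serine into glycine in mitochondria, had 273 and 283 CPM in MET+ and 97.2 and 88.6 CPM in MET-KO cells. MTHFD2 (ENSG00000065911, chromosome 2, 74198562 to 74217565), the next folate enzyme there, had 525 and 465 CPM in MET+ and 261 and 254 CPM in MET-KO cells. These groups were separate too, with log2 fold changes of -1.58 ± 0.10 and -0.94 ± 0.09. SHMT2, like MARS, DDIT3 and XPOT, lies on chromosome 12, and its neighbours had a median of -0.51. Some annotated transcripts of MTHFD2 end wholly opposite exons of SLC4A5.

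Among the other amino acid enzymes, CTH (ENSG00000116761, chromosome 1, 70411218 to 70439851), which makes cysteine from cystathionine, had 91.8 and 76.8 CPM in MET+ and 12.3 and 11.8 CPM in MET-KO cells. PYCR1 (ENSG00000183010, chromosome 17, 81932384 to 81942412), which completes proline synthesis in mitochondria, had 273 and 316 CPM in MET+ and 133 and 121 CPM in MET-KO cells. Both MET-KO libraries were low in each gene, with log2 fold changes of -2.81 ± 0.13 and -1.21 ± 0.10, and CTH stood at 14.3% of its MET+ level. Between 12.6% and 77.4% of the last 500 bases of PYCR1 lie opposite exons of another gene. ASNS, the glutamine-dependent asparagine synthetase (ENSG00000070669, chromosome 7, 97852118 to 97872542), was counted 9 and 14 times in MET+ cells, and 0 and 2 times after MET knockout. The ratio of MET+ to MET-KO was 13.4, with an exact conditional interval of 3.32 to 118 (95%, counting error only). The last 500 bases of its transcripts lie wholly within exons of another annotated gene on the same strand, which had 0 counts, so that reads fitting both may not have been counted and its level is uncertain. The neighbours of ASNS on chromosome 7 had a median of 0.64. CBS, which makes cystathionine, was listed at 0 in all 4 libraries, as was CBSL, a near-identical copy of it in the genome build. VLDLR, a lipoprotein receptor, was also at 0, which allows a level of up to 0.276 to 0.363 CPM, depending on the library. STC2, a secreted glycoprotein, had 84.7 and 82.0 CPM in MET+ and 74.6 and 71.1 CPM in MET-KO cells. Its MET-KO libraries lay below its MET+ libraries, but the log2 fold change of -0.19 ± 0.10 was not called. Its neighbours on chromosome 5 had a median of -0.39, and relative to that of the chromosome it had 0.23.

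Genes of the same pathways outside the list were taken as 9 lists with 112 genes, of which 108 were tested, 50 called lower and 13 called higher. Over all tested genes 26.9% were called lower and 27.2% higher, and the counts of each list are to be read beside these shares. These lists too were drawn up with earlier results of the same data known. Their p-values, here and below, are therefore no independent test of the listed genes. The median log2 fold change of the 108 was -0.26. Of 24 other reported ATF4 targets, 22 were tested, 16 were called lower and 0 higher by edgeR's quasi-likelihood test, with a median of -0.99. At an unadjusted p under 0.05, 17 were lower and 1 higher, and DESeq2's Wald test called 16 lower and 0 higher. SLC7A11, the cystine importer, had 313 and 273 CPM in MET+ and 45.6 and 44.6 CPM in MET-KO cells and a log2 fold change of -2.70 ± 0.10 (adjusted p = 2.07e-21, edgeR). GPT2, a mitochondrial alanine aminotransferase, changed by -2.48 ± 0.10, and PCK2, the mitochondrial PEP carboxykinase, by -2.07 ± 0.10 (adjusted p = 3.33e-20 and 3.88e-18, edgeR). In each of these 3 genes both MET-KO libraries lay below both MET+ libraries. PCK2 lies on chromosome 14, and relative to the median of that chromosome its change was -1.55. SESN2, a leucine sensor that restrains mTORC1, fell by 1.02 on the log2 scale (adjusted p = 2.18e-10, edgeR). GDF15, a secreted stress signal, had 1606 and 1901 CPM in MET+ and 1166 and 952 CPM in MET-KO cells, a log2 fold change of -0.73 ± 0.10 (adjusted p = 3.8e-07, edgeR). Letters of the TGATGNAA element were in 6 of the 17 genes of this list for which a promoter window was found (35.3%). They were in 4.46% of all genes with a window and in 2.70% of the tested ones. The list was made up of reported ATF4 targets, so this share is a description too.

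Upstream of ATF4, the kinases that phosphorylate eIF2 differed little at the RNA level. EIF2AK1, which encodes HRI, was called higher (0.29 ± 0.10, adjusted p = 0.0171, edgeR), and relative to its chromosome's median its change was -0.22. Neither EIF2AK1 nor AIMP2 was called by DESeq2's Wald test. EIF2AK1 and AIMP2 are neighbours on opposite strands, and 78.6% to 100% of the last 500 bases of AIMP2 lie opposite exons of EIF2AK1. EIF2AK2 (PKR), EIF2AK3 (PERK) and EIF2AK4 (GCN2) had -0.21, -0.25 and -0.24 and were not called (adjusted p = 0.109, 0.355 and 0.0644, edgeR). Of 13 genes of the kinases, eIF2 and its exchange factor eIF2B, 5 were called lower, beside 26.9% of all tested genes. Some of the 5 lie on chromosomes 12 and 14, whose medians were -0.31 and -0.51. EIF2B1 fell by 0.90, PPP1R15B, the constitutive counterpart of GADD34, by 0.89 and EIF2S2, the beta subunit of eIF2, by 0.87 on the log2 scale (adjusted p = 3.45e-08, 2.94e-07 and 5.4e-10, edgeR). Relative to the median of chromosome 12, EIF2B1 changed by -0.60. Relative to that of chromosome 15, EIF2AK4 had 0.19.

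The unfolded protein response of the endoplasmic reticulum, which also feeds ATF4 through PERK, had 8 of 18 genes called lower and 5 called higher, beside 26.9% and 27.2% of all tested genes. XBP1, HERPUD1 and HYOU1 fell by 1.24, 1.12 and 1.11 on the log2 scale (adjusted p = 1.05e-12, 3.54e-11 and 1.07e-10, edgeR). CALR, PDIA4 and CRELD2, a chaperone and folding factors, rose by 0.89, 0.82 and 0.50 (adjusted p = 1.57e-09, 7.29e-09 and 0.00015, edgeR). HSPA5, which encodes the chaperone BiP, had 673 and 702 CPM in MET+ and 619 and 584 CPM in MET-KO cells and was not called (-0.19 ± 0.09, adjusted p = 0.0719, edgeR). PDIA4 lies on chromosome 7, and relative to its median the change was 0.31.

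In the remaining metabolic lists, 4 of 9 tested one-carbon genes were lower and 1 higher. MTHFD1 and MTHFD1L fell by 0.90 and 0.34, and MTHFD2L, a paralog of MTHFD2, rose by 0.52 on the log2 scale (adjusted p = 1.4e-09, 0.00497 and 0.00295, edgeR). Relative to the median of chromosome 14, the change of MTHFD1 was -0.39. ALDH1L1, a cytosolic folate dehydrogenase named here after its values were seen, had 72 and 98 counts in MET+ and 0 in both MET-KO libraries, at least 32.9-fold lower in MET-KO cells. Of 7 genes of the methionine cycle and glutathione synthesis, 3 were lower and 3 higher. GCLC, the catalytic subunit of the first glutathione enzyme, fell by 0.86 while GCLM, its modifier subunit, rose by 0.51 (adjusted p = 4.91e-08 and 0.000156, edgeR). MTRR and MAT2A fell by 0.77 and 0.38, and GSS and AHCY rose by 0.64 and 0.29 (adjusted p = 8.73e-05, 0.00607, 6.04e-05 and 0.00876, edgeR). Relative to the median of chromosome 5, that of MTRR was -0.35. Of 9 genes of proline, glutamine and aspartate metabolism, 6 were lower and 2 higher. GOT1, the cytosolic aspartate aminotransferase, fell by 1.48 and GLUL by 0.55, while ASRGL1 and OAT rose by 0.43 and 0.33 (adjusted p = 1.61e-14, 4.36e-05, 0.00129 and 0.00427, edgeR). Of 8 further bZIP factors, 5 were lower and 0 higher, with 1 higher at an unadjusted p under 0.05 and 3 lower and 0 higher in DESeq2's Wald test. CEBPD, ATF7 and ATF1 fell by 2.65, 1.17 and 0.72 (adjusted p = 5.65e-16, 7.71e-05 and 8.67e-06, edgeR). Relative to the median of chromosome 12, ATF1 changed by -0.41. The calls of MTHFD1L, MAT2A, AHCY and OAT were lost when single libraries were left out. The annotated ends of EIF2B1, HYOU1, CALR, MAT2A, ASRGL1 and ATF7 overlap exons of other genes, and how such reads were assigned is not known here.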

How the data were processed

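RNA from MET+ and MET-KO LoVo cells (2 libraries each, QuantSeq 3′ FWD) was deposited by the authors as raw read counts per gene, without normalization, in 58825 gene rows and 99 spike-in rows that held 0 counts. The submitters' processing notes name cutadapt 1.16, STAR 2.5.4a, featureCounts 1.6.2, DESeq2 1.18.1 and GRCh38, and the strand setting and annotation release are not given in the sources used here. The kit's reads lie near the 3′ end, so a count depends on the annotated end and on overlapping genes, and transcript length was not corrected for. No molecular identifiers are named in the labels, so intervals and limits for 0 counts cover counting error only.

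Gene names and positions came from GENCODE 29, which held 58552 of the gene IDs. Counts were fitted in R 4.3.3 with edgeR 4.0.16 (filterByExpr by group, TMM scaling, condition as the only term, quasi-likelihood test, Benjamini-Hochberg adjustment over 13801 genes, threshold 0.05) after the scripts were tested on simulated data. CPM are TMM-normalized. P-values measure the spread between these libraries, which are labelled as biological replicates, without a statement that they are separate clones. An exact permutation test of 2 against 2 libraries cannot go below p = 0.333. For a gene at 0 counts the limit was 3 counts per library.

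The genes and lists were chosen with earlier results of these data known. Values in every library are given for each tested gene of the list with separate groups and a log2 fold change of 0.5 or more in size, and for ATF4, ATF3, DDIT3, ASNS, CHAC1, TRIB3 and PHGDH. Of each other list up to 3 called genes a direction, with log2 CPM of 3 or more, are named, besides the eIF2 kinases, HSPA5, XBP1, SESN2, GDF15 and SLC7A11, and MET. Some genes that this rule would name are not reported here. Other genes given with the value of every library (KARS, VARS, PPP1R15A, CEBPB, STC2) serve as examples chosen after their values were seen. Alternatives were DESeq2 size factors, library totals alone, the Wald test of DESeq2 1.42.0, every gene kept, a minimum of 10 counts in each library, a size of 1 or more on the log2 scale, values relative to the chromosome median, the replicate number as a block, and leaving out each library.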

Additional observations from a re-analysis of the deposited data

How the results depend on the processing

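Among 427 values of the listed genes under the alternatives, 0 changed sign with a call, and 36 of 39 genes kept their call in every alternative fit that gave them a value. Relative to the chromosome median, however, 19 of the 39 values moved by more than the spread between libraries, and among the called genes LARS (-0.76), RARS (-0.12), WARS (-0.87), HARS (-0.35), TARS (-0.63), GARS (-1.28) and PSPH (-1.36) by over 1.5 times. IARS lost its call with library totals alone, DESeq2's Wald test, a minimum of 10 counts, the replicate block and each of the 4 fits that left out a library, CEBPB without MET+ replicate 1, and ASNS without MET-KO replicate 1. At a size of 1 or more on the log2 scale, 3355 genes, 19 listed genes lower and 1 higher, 6 synthetases lower, and 20 other pathway genes lower and 0 higher were left, where all called pathway genes numbered 50 lower and 13 higher. An alternative chosen after seeing the data kept only chromosomes with a median within 0.25 of 0. It left 25 listed genes with 18 lower, and 11 synthetases with 6 lower. The median of the synthetases, -0.74 as reported, was then -0.25, and it was -0.60 relative to the chromosome medians and -0.64 with library totals alone, which moved the median of all genes to 0.11. The median of the other listed genes, -1.26, was then -1.11, and it was -1.16 with library totals alone, -1.20 with at least 10 counts and between -1.35 and -1.17 when each library was left out. DESeq2's Wald test called 5760 genes against 7467. Leaving out a library gave 29 to 30 listed genes lower and assumes that the lone sample varies like the other group. Relative to the median of chromosome 7, AIMP2 and EIF2AK1 changed sign, at -0.20 and -0.22. Both also lost their call in DESeq2's Wald test, and EIF2AK1 without MET+ replicate 1 or MET-KO replicate 1 and AIMP2 without MET+ replicate 2 or MET-KO replicate 1. SARS2 and HARS2 lost theirs in DESeq2's Wald test, HARS2 also with library totals alone. Calls were also lost without MET+ replicate 1 in AHCY (0.28) and MTHFD1L (-0.28), without MET+ replicate 2 in HARS2 (-0.28), AHCY (0.29), MAT2A (-0.31) and OAT (0.26), without MET-KO replicate 1 in HARS2 (-0.37) and AHCY (0.21), and without MET-KO replicate 2 in SARS2 (-0.51) and MAT2A (-0.28), and MTHFD1L lost its call with library totals alone (-0.24). EIF2AK4 was called without MET+ replicate 2 (-0.41) and HSPA5 without MET-KO replicate 1 (-0.24). The other 32 of the 42 pathway genes that the naming rule takes, MET included, kept their calls.

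Deviations from the group means correlated at -0.02 between libraries with the same replicate number. With 2 libraries a group, the value for the other number (0.02) is its mirror image. Whether the replicate numbers pair the libraries cannot be decided from this. With the replicate number as a block, 7055 genes, 30 listed genes lower and 12 synthetases lower were called.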
